A study of Mus musculus with 6 samples.

Results

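Skin that had received TGF-beta from a subcutaneous pump was set against skin that had received PBS at the same place, and the genes described here are those that read higher, or lower, than the PBS skin in both TGF-beta mice. The comparison used 3 of the 6 arrays of the series, namely TGF-beta mouse 1, TGF-beta mouse 2 and the single PBS array from the pump outlet, called PBS local below. All mice were C57BL/6, and each pump released its content into the skin for 7 days. The remaining 3 arrays, 1 each, were outlet skin given IL-13, outlet skin given TSLP, and abdominal skin of a PBS mouse far from the outlet (PBS distal), and their values are given only beside those of the comparison. The labels used here do not name the TGF-beta isoform or its dose, or the age of the mice. Of 22690 probe sets in the table, 22626 remained after 64 AFFX control probe sets were left out, and each was compared as its difference in log2(signal + 27.4), where 27.4 is the 25th percentile of all signals. An offset of this kind understates the differences of dim genes. Genes were ordered by the smaller of the 2 mouse differences, so that neither mouse alone could place a gene.

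TGF-beta is a secreted cytokine that is stored in the extracellular matrix in a latent complex and binds a pair of receptor kinases once it is freed. The receptors phosphorylate SMAD2 and SMAD3, which enter the nucleus with SMAD4, while SMAD6, SMAD7, BAMBI, SKI and SKIL limit the signal. In skin the cytokine is known for its part in wound repair and fibrosis, where it acts on fibroblasts to make collagen and contractile proteins, and for slowing the growth of keratinocytes.

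The keratins that define keratinocytes were bright on all arrays, as the tissue label calls for. Krt5 had a signal of 6031 to 9502 over the 6 arrays and Krt14 one of 5886 to 8744. Skeletal muscle actin Acta1 was brighter than both on every array, at 11674 to 18494. The arrays were alike in their median signal (160.2 to 171.4) and in the ratio of 3' to 5' Actb probe sets, 1.13 in PBS local and 1.19 to 1.254 elsewhere. Precision is limited by the number of arrays, and with 1 PBS local array its own spread is not known. Something particular to that array and an effect of TGF-beta cannot be told apart, and the same array serves as the reference for IL-13 and TSLP. The mice differed from each other in the genes of growing hair. The 27 hair follicle genes on the array summed to a signal of 58788 in TGF-beta mouse 2, to 1610 in mouse 1 and to between 1728 and 4919 on the other arrays.

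Most differences were small, and the mice often differed in sign. Of 12034 probe sets that reached the median signal of 165.1 on at least 1 of the 3 compared arrays, 3526 were higher in both mice (29.3%), 4944 were lower in both (41.1%) and 3564 went opposite ways. At a difference of 0.32 or more on the log2 scale, 546 were higher (4.54%) and 765 lower (6.36%). At 1.5-fold there were 110 higher (0.914%) and 145 lower (1.20%). At 2-fold, 21 were higher (0.175%) and 17 lower (0.141%), while mouse 1 alone had 44 and 75, and mouse 2 alone 196 and 166. The SD of the differences over all tested probe sets was 0.31 in mouse 1 and 0.51 in mouse 2, with medians of -0.05 and -0.03. The fit with limma across all probe sets, in which the spread comes from the 2 TGF-beta mice alone, called 0 of the 12034 (0%) at an adjusted p of 0.05. Its smallest adjusted p was 0.861, which all 30 genes named below shared, and 629 probe sets had an unadjusted p under 0.05 (5.23%; 323 higher and 306 lower). An exact permutation test of 2 arrays against 1 cannot give a p below 0.333. The differences below are therefore sizes that the mice shared and not calls of a test.

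**Figure D1:**
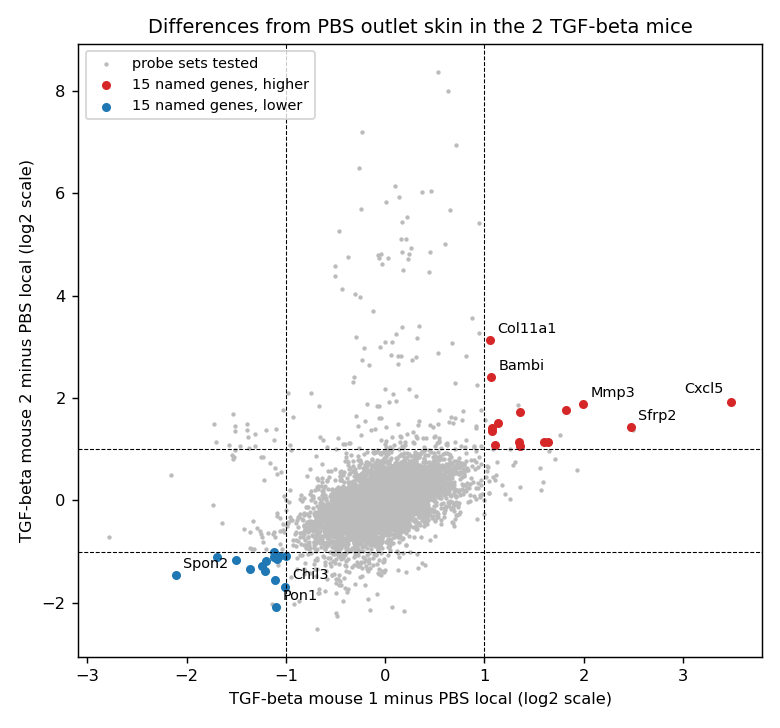
Difference from PBS local skin in TGF-beta mouse 1 (x axis) and mouse 2 (y axis), in log2(signal + 27.4), with 1 point for each of 12034 probe sets; the 15 named genes on the high side are red and the 15 on the low side blue, and dashed lines mark 2-fold. All 30 lie beyond 2-fold in both mice, and the tall spread at mouse 1 values near 0 is carried by mouse 2 alone.

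The genes ranked highest in both mice included secreted proteins of the matrix. Mmp3, stromelysin-1, a protease that cleaves proteoglycans and activates other matrix metalloproteinases, had a signal of 589.8 in PBS local skin, 435 in PBS distal, 1526 under IL-13, 2203 under TSLP, and 2431 and 2252 in the TGF-beta mice. Both TGF-beta values were the highest of the 6, just above TSLP, and the mean difference from PBS local was 1.94 ± 0.08 (SD, n = 2 mice; limma SE 0.18). Sfrp2, a secreted binder of Wnt ligands made by fibroblasts, read 472 in PBS local, 239.5 in PBS distal, 1338 under IL-13, 1889 under TSLP, and 2743 and 1320 under TGF-beta (mean difference 1.95 ± 0.74, SD, n = 2). Mouse 1 stood above all other arrays, and mouse 2 lay at the IL-13 level. Ccn4, a matricellular protein first described as a Wnt1 target, read 142.7 in PBS local, 38.4 in PBS distal, 278.5 under IL-13, 192.5 under TSLP, and 504 and 347 under TGF-beta. Its mean difference was 1.39 ± 0.36 (SD, n = 2), both mice lay above all 4 other arrays, and a second Ccn4 probe set gave 1.65 and 0.97. Col11a1, a fibrillar collagen chain, was dim in mouse 1 (56.9) and brighter in mouse 2 (329.6), against 13.2 in PBS local and 79.2 under IL-13, so that mouse 1 lay inside the range of the other arrays.

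The neutrophil chemokines Cxcl5 and Cxcl2 and a few genes of leukocytes and the acute phase were also ranked high. Of 5 measured neutrophil chemokine genes 4 were higher in both mice and 0 lower, but of 9 acute inflammation genes 2 were higher and 6 lower, and of 9 myeloid C-type lectin genes 3 were higher and 3 lower (all 7741 genes: 27.9% higher and 42.4% lower). Cxcl5, which attracts neutrophils through CXCR2, had the top rank with differences of 3.49 and 1.93 (mean 2.71 ± 1.10, SD, n = 2). Its signal was 67.4 in PBS local and 10.6 in PBS distal, and it was higher under IL-13 (1883) and TSLP (1662) than in the TGF-beta mice (1036 and 333.7). Cxcl2 had the same order, with 102.4 in PBS local, 14.96 in PBS distal, 1051 under IL-13, 878.7 under TSLP, and 305.7 and 244.4 under TGF-beta. The TGF-beta mice thus lay between PBS skin and the other cytokines for both chemokines. Saa3, an acute-phase serum amyloid made by macrophages and epithelium, was bright everywhere at the outlet, at 5386 in PBS local, 10749 under IL-13, 9981 under TSLP, and 11649 and 11467 under TGF-beta, against 230.6 in PBS distal. Clec4d, a C-type lectin of myeloid cells, read 582 in PBS local and 1522 and 1314 in the TGF-beta mice, below IL-13 (2073) and TSLP (1789). Gzma, a granule protease of cytotoxic lymphocytes, read 188.8 in PBS local, 49.1 in PBS distal, and 429.3 and 549.6 under TGF-beta, within the range of IL-13 (379.4) and TSLP (548.8) or just above it. Colec12, a scavenger receptor with a collagen-like stalk, read 106.9 in PBS local, 160.0 in PBS distal, 237.7 under IL-13, 190.5 under TSLP, and 268 and 357.7 in the TGF-beta mice, which were the highest. In whole skin, fewer cells of a type and less RNA per cell cannot be told apart, which holds for each gene of a single cell type here.

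Regulators of signalling and transcription followed. Sox4, a transcription factor whose transcript is known to respond to TGF-beta in other cells, read 130.2 in PBS local, 215.4 in PBS distal, 196.1 under IL-13, 279.7 under TSLP, and 376.8 and 496.3 under TGF-beta. Both mice lay above the other 4 arrays, with a mean difference of 1.55 ± 0.26 (SD, n = 2), and the other 2 Sox4 probe sets bright enough to be tested gave 1.34 and 1.86, and 0.92 and 1.41. Bambi, a receptor without a kinase that dampens TGF-beta family signals, read 84.3 in PBS local, 107.1 in PBS distal, 121.7 under IL-13, 142.5 under TSLP, and 207.1 and 566.8 under TGF-beta. Both mice were the highest again, but mouse 2, the one with the high hair follicle sum, was far above mouse 1 (differences 1.07 and 2.41). Whether the hair genes have a part in that gap was not tested. Tcfl5, a basic helix-loop-helix factor, read 82.4 in PBS local and 304.3 and 213.8 under TGF-beta, with IL-13 at 259.3. The rule also put in this group Cpt1a, the mitochondrial carnitine palmitoyltransferase, and the ribosomal protein gene Rps10. For Cpt1a the ranked probe set had differences of 1.82 and 1.77 but a brighter one 0.22 and 0.16, and PBS distal (713.9) was at the TGF-beta level (794.4 and 769.3), far above PBS local (205.7). For Rps10 the ranked probe set had 1.08 and 1.36 and the other 4 tested ones 0.37 to 0.66, and PBS local, at 4390, was the lowest array of the 6.

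**Figure D2:**
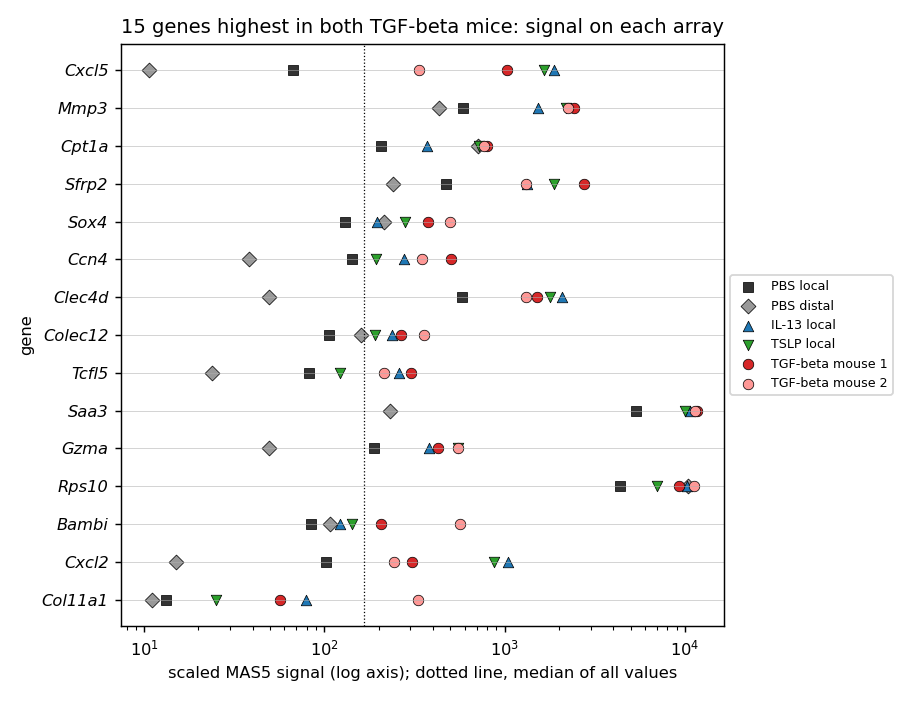
Signal of the 15 genes ranked highest in both TGF-beta mice, on a log axis, with 1 point per array and gene: PBS local, PBS distal, IL-13, TSLP and the 2 TGF-beta mice. For Mmp3, Cpt1a, Sox4, Ccn4, Colec12, Saa3 and Bambi both TGF-beta points lie to the right of all others, while for Cxcl5, Cxcl2 and Clec4d they lie between the PBS points and those of IL-13 and TSLP.

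Promoter sequences were at hand for 20 of the 30 named genes, from RefSeq on GRCm38.p6. The 120 bases before the start are shown for Mmp3 and Sox4, which ranked high with small spread between the mice, and for the chemokine Cxcl2. Capitals mark matches, on either strand, to TGANTCA (the AP-1 site), an NF-kB site of 10 letters (those of the Cxcl2 matches shown, with the fourth and the fifth letter free), CAGACA (a SMAD box, TGTCTG on the other strand) and TATAAA.
Mmp3, chr9:7445702-7445821, plus strand: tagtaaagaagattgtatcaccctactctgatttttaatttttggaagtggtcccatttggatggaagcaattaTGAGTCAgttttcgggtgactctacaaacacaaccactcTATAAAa
Sox4, chr13:28953700-28953819, minus strand: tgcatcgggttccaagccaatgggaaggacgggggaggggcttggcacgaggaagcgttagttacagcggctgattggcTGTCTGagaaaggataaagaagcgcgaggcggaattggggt
Cxcl2, chr5:90903779-90903898, plus strand: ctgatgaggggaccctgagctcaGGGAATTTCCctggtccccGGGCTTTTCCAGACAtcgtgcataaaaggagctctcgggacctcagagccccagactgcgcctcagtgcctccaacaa
The Mmp3 promoter held an AP-1 match 46 bases before the start. In Cxcl2 the NF-kB letters matched at 97 and 78 bases before the start, and the second match shares its last base with the SMAD box. In windows of 300 bases (250 before and 50 after the start), 7.81% of all 32851 promoters held the AP-1 letters, 1.63% the NF-kB letters, 21.0% the SMAD box and 13.6% TATAAA. Of the 11 higher genes with a promoter, AP-1 letters were found in 1, NF-kB letters in 1, the SMAD box in 3 and TATAAA in 1. Of the 9 lower genes with one, these were found in 4, 0, 5 and 4, over 11 promoters. These matches are letters in a window and no measure of binding.

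The genes lower in both TGF-beta mice included an enzyme of hyaluronan synthesis and a receptor for it, a matrix crosslinking enzyme, the chemokine gene Ccl7 and the selectin gene Selp. Has2, the main hyaluronan synthase of dermal fibroblasts, read 210.6 in PBS local, 264.3 in PBS distal, 254.7 under IL-13, 134.5 under TSLP, and 75.4 and 64.0 under TGF-beta. Both mice were the lowest of the 6, with a mean difference of -1.30 ± 0.12 (SD, n = 2; limma SE 0.34). Lyve1, a hyaluronan receptor of lymphatic vessels and of some macrophages, read 2407 in PBS local, 3624 in PBS distal, 1287 under IL-13, 1390.1 under TSLP, and 1104 and 805.8 under TGF-beta. These too were the lowest values, and a second probe set had differences of -1.07 and -1.26. Of 4 measured lymphatic genes, Lyve1 and Reln (-0.30 and -0.19) were lower in both mice, and Pdpn (0.37 and 0.16) and Flt4 (0.19 and 0.22) higher. Tgm2, a transglutaminase that crosslinks matrix proteins, read 3227 in PBS local, 3504 in PBS distal, 1655 under IL-13, 1532 under TSLP, and 1119.7 and 1426 under TGF-beta. The TGF-beta mice were lowest, and all 4 other tested Tgm2 probe sets were lower in both mice, by -0.59 to -1.34.

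Spon2, a matrix protein that binds integrins on leukocytes, had the largest shared difference on the low side. It read 758 in PBS local, 454.5 in PBS distal, 499 under IL-13, 282.9 under TSLP, and 154.5 and 257 under TGF-beta (mean -1.79 ± 0.46, SD, n = 2). Neu2, a cytosolic sialidase, read 493.3 in PBS local, 643.4 in PBS distal, 233.6 under IL-13 and 681.5 under TSLP, and the mice were nearly equal at 174.8 and 178. Slc27a3, a protein of the fatty acid transporter family, read 404.3 in PBS local, 320.1 in PBS distal, 260.0 under IL-13, 208.1 under TSLP, and 160.7 and 162.2 under TGF-beta. For these 3 genes both TGF-beta values lay below every other array. Ccl7, a chemokine that attracts monocytes, read 1622 in PBS local, 3043 under IL-13, 1778 under TSLP, and 748.5 and 723 under TGF-beta, which was the level of PBS distal (738.6). Selp, the P-selectin on which leukocytes roll, read 544.9 in PBS local, 389.2 under IL-13, 377 under TSLP, 246 and 243.8 under TGF-beta, and less in PBS distal (197.5). The lists of these genes were evenly split. Of 10 monocyte chemokine genes 4 were higher in both mice and 4 lower, and of 13 blood vessel endothelium genes 3 and 3 (all 7741 genes: 27.9% higher and 42.4% lower). Chil3, a chitinase-like protein of macrophages and neutrophils, read 1125 in PBS local, 831.1 in PBS distal, 4175 under IL-13, 854.4 under TSLP, and 546.8 and 331.6 under TGF-beta, the lowest values.

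The remaining low genes belong to blood and liver. Hemgn and Klf1 are genes of developing red cells, with differences of -1.24 and -1.28, and of -1.12 and -1.0. PBS local was the highest of the 6 arrays for both, and PBS distal the lowest: Hemgn read 744 and 76.3 there and 298.5 and 289.6 in the TGF-beta mice. The 10 erythroid genes on the array summed to 4259 in PBS local, 3160 under IL-13, 2403 under TSLP, 2366 and 2542 under TGF-beta, and 634.8 in PBS distal. None was at 0, though the Hba-a1 probe set read only 1 to 9 units and so has no usable level. The part of red cell precursors in the Hemgn and Klf1 differences was not tested. Crp, Pon1 and Hamp, known as products of the liver, had differences of -1.69 and -1.10, -1.10 and -2.08, and -1.0 and -1.09, from PBS local signals of 180, 229.6 and 259.97. In the same order they were also lower than PBS local under IL-13 (-1.04, -1.68 and -1.39) and TSLP (-1.39, -0.54 and -0.14). In PBS distal they read 146.4, 470.7 and 323.1. The list of liver and plasma protein genes, which holds Crp and Pon1 but not Hamp, had 4 measured genes. Of these 0 were higher in both mice, 3 were lower and 1 went opposite ways (all 7741 genes: 27.9% higher and 42.4% lower). Their summed signal was 1653 in PBS local, 1674 in TGF-beta mouse 1 and 632.5 in mouse 2. Alb, the albumin gene, stayed below the filter at 54 to 72. The Ighm probe set that the rule took (-1.12 and -1.10) was not matched by brighter ones, of which the 3 tested gave 0.40 and -1.27, 0.16 and -0.50, and -0.29 and -0.88. Of 18 other tested probe sets of the named genes, 16 had the same sign in both mice and the 2 exceptions were both Ighm.

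**Figure D3:**
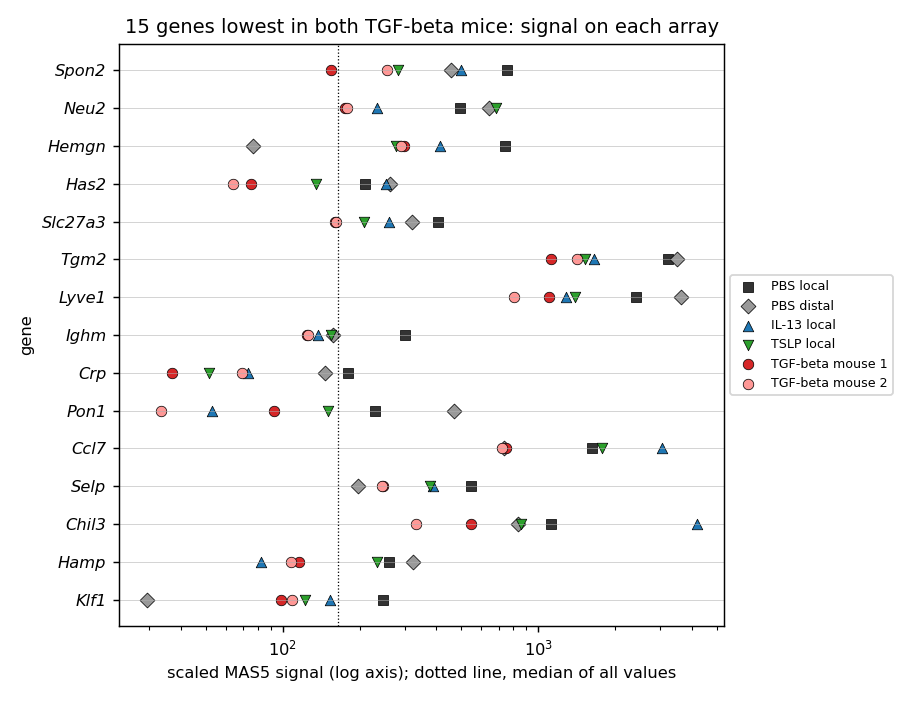
Signal of the 15 genes ranked lowest in both TGF-beta mice, on a log axis, with 1 point per array and gene. For Has2, Lyve1, Tgm2, Spon2, Neu2, Slc27a3, Ighm and Chil3 both TGF-beta points lie to the left of all others, while for Hemgn, Klf1 and Selp PBS distal lies further left.

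Below 2-fold the number of genes grew quickly, and 1.5-fold in both mice was reached by probe sets naming 91 genes on the high side and 119 on the low side. The genes named in this paragraph were chosen after their values were seen. Mmp11, stromelysin-3, known from stroma under remodelling, read 88.6 in PBS local, 63.6 in PBS distal, 125.2 under IL-13, 107.3 under TSLP, and 198.5 and 214.5 under TGF-beta, so both mice lay above all other arrays (differences 0.96 and 1.06). Krt6b, a keratin of wounded epidermis, was dim at 64.0 in PBS local, and the TGF-beta mice (133.6 and 179.5) lay above the other 4 arrays, which were at 70.6 or less. Fhl2, a LIM-domain cofactor, read 209.5 in PBS local and 86.6 to 234.4 on the other control and cytokine arrays, against 368.5 and 394.7 under TGF-beta. Tagln, a contractile protein of smooth muscle and myofibroblasts, read 1085 in PBS local, 1014 in PBS distal, 1035 under IL-13, 1278 under TSLP, and 1723 and 2032 under TGF-beta. On the low side Slamf9, a receptor of myeloid cells, read 548.3 to 698.8 on the 4 other arrays and 342.2 in both TGF-beta mice. Retnla, a product of alternatively activated macrophages, read 975.2 in PBS local, 9075 in PBS distal, 1515 under IL-13, 2167 under TSLP, and 595.3 and 366.9 under TGF-beta. Arg1, another gene of such macrophages, went the other way, with 473.7 in PBS local, 941.8 in PBS distal, 5149 under IL-13, 1556 under TSLP, and 1880.3 and 729.8 under TGF-beta (differences 1.93 and 0.60). Of 13 measured type 2 immunity genes, which include Retnla, Arg1 and Chil3, 3 were higher in both mice and 5 lower. Mgl2, a lectin of dermal dendritic cells and macrophages, read 859.8 in PBS local and 584.2 to 1658 on the other 3 arrays, against 421.9 and 393.3. Csf1, the macrophage growth factor, read 1021 in PBS local and 807.2 to 898.4 on those 3, against 648.4 and 612.9. Timp3, an inhibitor of metalloproteinases bound to the matrix, read 3158 in PBS local and 2217 to 3801 on those 3, against 1734 and 1902. For Slamf9, Retnla, Mgl2, Csf1 and Timp3 both mice read below every other array. Lgr5, a gene of hair follicle stem cells, and the troponin gene Tnnc1 completed the named genes past 2-fold on the high side. Their differences were 1.01 and 1.58, and 1.09 and 1.01.

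Over all 12034 probe sets, both TGF-beta arrays lay above the 4 other arrays in 790 (6.56%) and below them in 854 (7.10%). Of the 21 probe sets past 2-fold on the high side 11 did so, and of the 17 on the low side 10, shares that the choice of members against 1 of those 4 arrays has raised. Any pair of arrays would lie outside the range of the others for some probe sets. Whether 6.56% and 7.10% exceed what such a pair gives without an effect was not tested. At a distance of 1.5-fold from the nearest of the 4, a setting chosen after the data were seen, 5 genes were left, namely Krt6b and Fhl2 above, and Slamf9, Has2 and Retnla below.

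In the TGF-beta pathway itself the shared differences were small. With 1 probe set per gene, 79 of 104 pathway genes on the array were bright enough to be compared, of which 39 were higher in both mice and 16 lower, beside 27.9% higher and 42.4% lower of all 7741 genes. After quantile normalization it was 34 higher and 19 lower of 80. None passed limma's threshold. On the ligand list, 4 of 10 were higher in both mice and 1 lower, and none reached 0.32 in both mice (4.15% higher and 6.37% lower of all genes). The 4 higher include Bmp1, which is on the list but is a protease and not a ligand. Tgfb3 had 0.37 and 0.03, Bmp1, the protease that trims procollagen and frees latent TGF-beta, 0.50 and 0.13, and Tgfb1 was below the filter at 100.3 to 159.1. On the list of the latent complex and its activation, Ltbp2, an elastic fibre protein placed there by its family name, had 0.77 and 0.73, while Ltbp4 had -0.46 and -0.56. Ltbp2 read 288.6 in PBS local and 511.9 and 495.2 under TGF-beta, but more under IL-13 (608.9). Receptors moved little: Tgfbr1 had 0.25 and 0.30, and Tgfbr2 -0.25 and -0.23. Of 6 SMAD genes 4 were higher in both mice and 1 lower. The inhibitory Smad6 and Smad7 had 0.22 and 1.29, and 0.13 and 0.69, so that their size was set by mouse 2. Among inhibitors of the family, Bambi was the gene past 2-fold, and Skil, a co-repressor and early target, had 0.33 and 0.34.

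Target genes of TGF-beta were taken as a matrix and an early list, both of which are also part of the pathway count above. Of 21 genes of matrix and myofibroblasts, 15 were higher in both mice and 1 lower, with a median difference of 0.29 (0.44 in mouse 1 and 0.12 in mouse 2), beside -0.05 over all genes. The count depends on the scaling: after quantile normalization it was 11 higher and 4 lower of 22, with a median of 0.05 and -0.02 over all genes. With the brightest probe set of each gene, 2 passed 1.5-fold in both mice, Ccn4 and Tagln. Timp1, an inhibitor of metalloproteinases, had 1.02 and 0.58, Nox4, an oxidase of myofibroblasts, 0.93 and 0.35, Acta2, smooth muscle actin, 0.51 and 0.19, and the collagen crosslinking enzyme gene Lox 0.98 and 0.12. Postn had 0.44 and 0.18, Col1a1 0.24 and 0.10, and Fn1 0.78 and 0.12. A dimmer Fn1 probe set had 1.56 and 0.63 and so passed 1.5-fold. Mouse 1 had the larger value in each of these 7. Of 18 early target genes 8 were higher in both mice and 6 lower. Tsc22d1, a leucine zipper gene, had 0.31 and 0.34, while Ccn2 had 0.83 and -0.04, Ccn1 -0.30 and -0.61, and Junb -0.32 and -0.11.

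**Figure D4:**
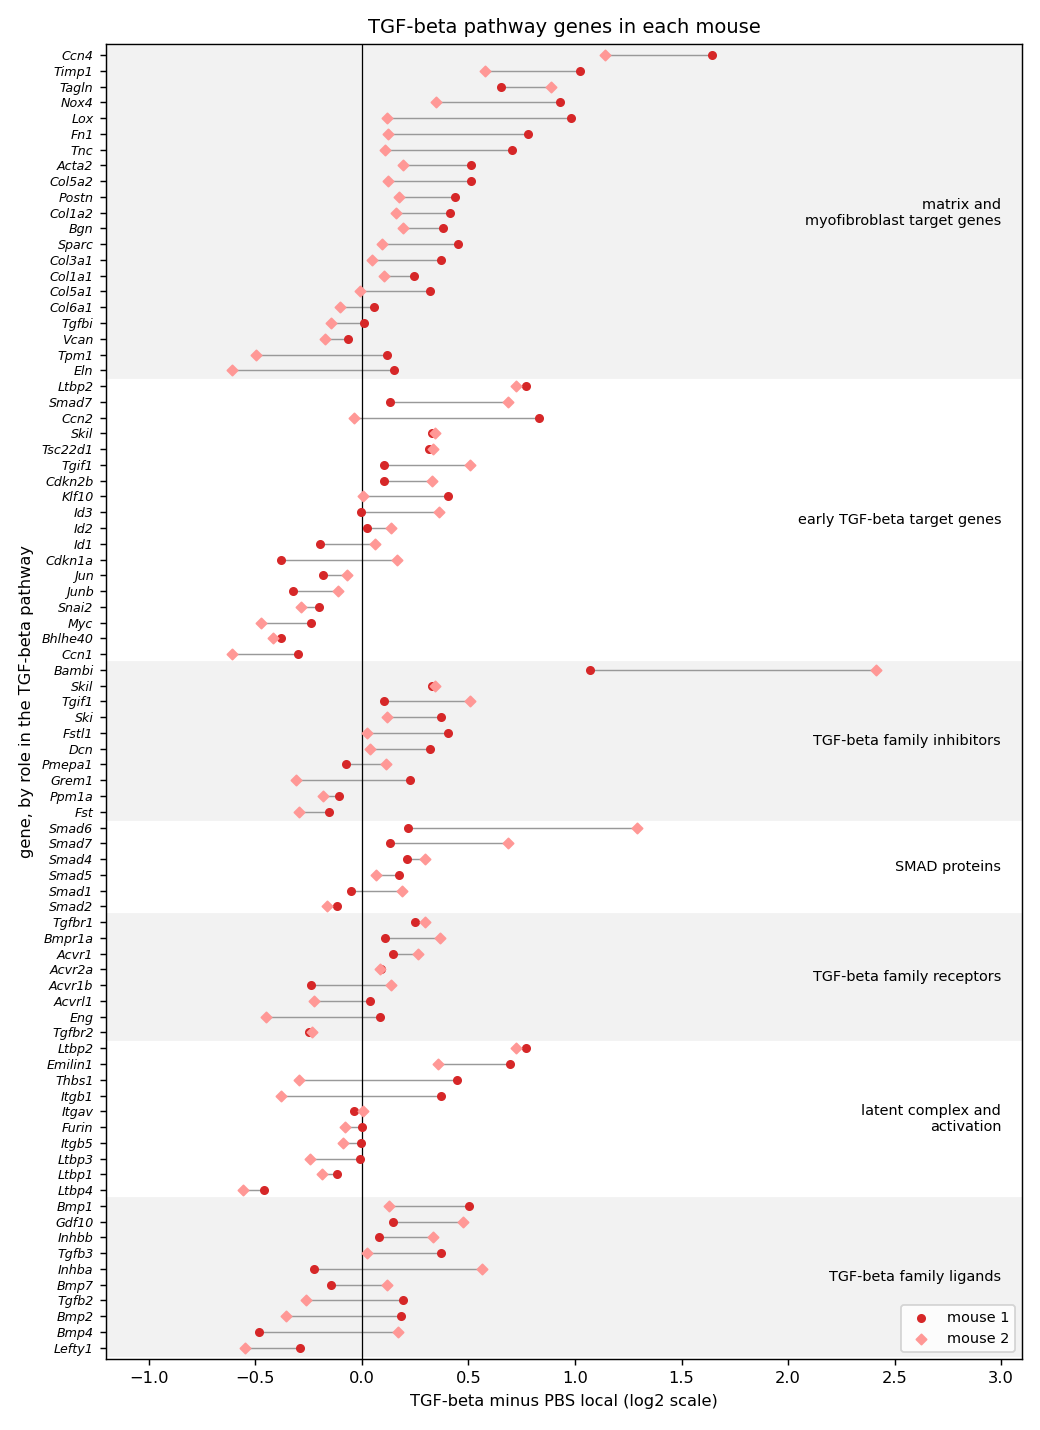
Difference from PBS local skin, in log2(signal + 27.4), for the measured genes of the TGF-beta pathway, target genes included, grouped by role. Each row has 1 point for mouse 1 and 1 for mouse 2. Most points lie within 0.5 of 0, Bambi and Ccn4 stand out on the high side in both mice, and Smad6 and Smad7 stand out in mouse 2.

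The matrix was described further by families, each to be read beside the 27.9% of all genes that were higher in both mice and the 42.4% that were lower (after quantile normalization, 2457 and 2886 of 7724). Of 21 collagen chain genes, 12 were higher in both mice and 3 lower, with a median of 0.16, and after quantile normalization 7 and 6 with a median of 0.04. Col12a1, a collagen that decorates fibrils, had 0.53 and 0.53, and Col18a1, the basement membrane chain that holds endostatin, 0.33 and 0.42. The lower ones were Col7a1, the anchoring fibril collagen (-0.48 and -0.69), Col15a1 (-0.70 and -0.85) and Col17a1, of hemidesmosomes (-0.28 and -0.62). Of 10 matrix protease genes 6 were higher in both and 2 lower (5 and 2 after quantile normalization). Mmp14, which activates pro-MMP2 at the cell surface, read 2849.9 in PBS local and 4098 and 4018 under TGF-beta, above the other 3 arrays (1727 to 3227). Of 8 genes of hyaluronan, 0 were higher in both mice and 5 lower (1 and 5 after quantile normalization), among the 5 Has1, another synthase, which read 204.8 in PBS local, 63.5 in PBS distal, 408.3 under IL-13, 381.3 under TSLP, and 125.5 and 93.6 under TGF-beta. Cd44, the widespread hyaluronan receptor, had -0.08 and -0.06. Of 11 measured Wnt regulators and targets, among them Sfrp2 and Ccn4, 5 were higher in both mice and 4 lower, with medians of -0.21 in mouse 1 and 0.79 in mouse 2. The Wnt regulator Dkk3 had 0.89 and 0.79 and, at 396.9 and 368.5, lay above all other arrays.

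Lists of other cell types are given beside the same shares of all genes, 27.9% higher and 42.4% lower in both mice. Of 10 basal keratinocyte genes, 8 were lower in both mice and 1 higher (median -0.23), with Itgb4, the hemidesmosome integrin, at -0.60 and -0.62. The median of these genes was much the same under IL-13 (-0.27) and TSLP (-0.22), against the same PBS local array. Of 7 stressed keratinocyte genes 4 were higher in both mice and 0 lower, with medians of 0.70 in mouse 1 and 0.72 in mouse 2. After quantile normalization these medians were 0.70 and 0.71. Under IL-13 the median was 0.10 and under TSLP -0.38. Of 20 genes of monocytes and macrophages, 10 were higher and 6 lower (median 0.02), which turned to 6 and 8 (median -0.02) after quantile normalization: the scavenger receptor Marco had 0.72 and 0.78, the adaptor Tyrobp 0.44 and 0.47, and Itgam -0.46 and -0.85. Of 14 interferon-response genes 8 were higher and 2 lower (median 0.16), with Ifit2 at 0.71 and 0.63. Under IL-13 and TSLP the median was larger, at 0.56 and 1.15, as was Ifit2, at 1.14 and 1.27. Of 7 mast cell genes 5 were lower and 1 higher, with the protease Mcpt4 at -0.69 and -0.46. Vcam1, an adhesion molecule of activated vessels, had 0.58 and 0.65, opposite to Selp, while the endothelial genes Pecam1 and Cdh5 had 0.50 and -0.23, and 0.62 and 0.04. All 8 ribosomal protein genes were higher in both mice (median 0.34), but 5 were higher and 1 lower (median 0.16) after quantile normalization. PBS local was below both TGF-beta arrays, IL-13 and PBS distal in their summed signal, 73786 against 87519.5 to 95067, with TSLP lower still at 67647.

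Several lists set the mice apart. Hair follicle genes had a median difference of 0.07 in mouse 1 and 4.91 in mouse 2, and melanocyte genes 0.42 and 2.84. By sign alone many were shared. Of 22 measured hair follicle genes 13 were higher in both mice and 0 lower, and of 6 melanocyte genes 5 and 0. Of all 7741 genes, 27.9% were higher and 42.4% lower. Krt25, a keratin of the inner root sheath, read 29.8 in mouse 1 and 13132 in mouse 2, and 1049 under IL-13. The 12 genes of exocrine pancreas all went opposite ways, with medians of -1.35 and 1.27. They summed to 2210 in mouse 1 and 12792 in mouse 2, to 5354 in PBS local and to 17996 under IL-13. By the rule of a shared sign none of the pancreas genes is a member. B cell genes had -0.13 and -1.08, with Igha at -0.68 and -2.51. Of 12034 probe sets, 275 differed at least 2-fold between the TGF-beta mice, 183 being higher in mouse 2 and 92 lower.

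**Figure D5:**
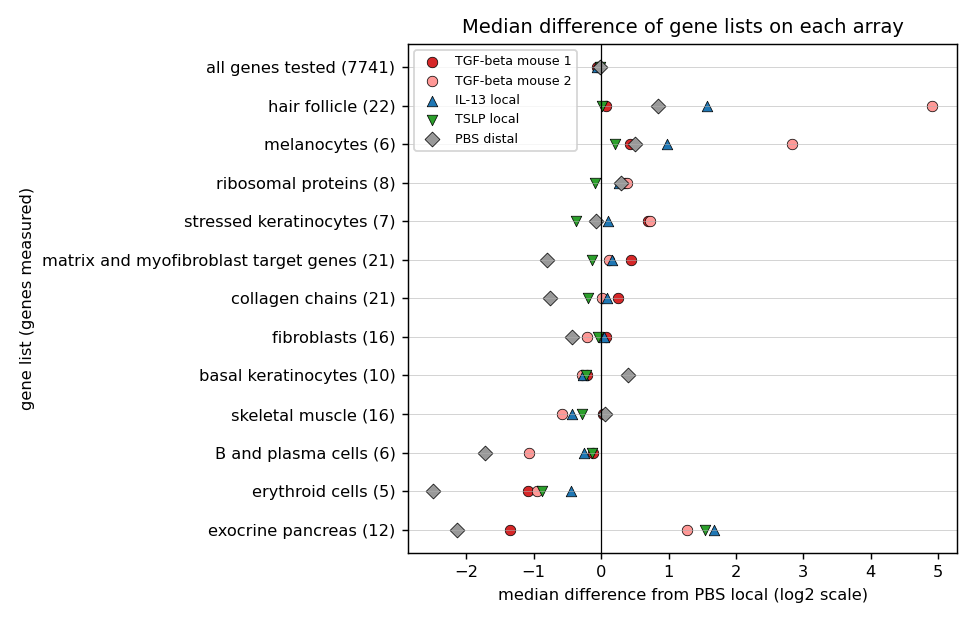
Median difference from PBS local skin, in log2(signal + 27.4), of all 7741 genes and of 12 gene lists, with 1 point per list for each TGF-beta mouse, IL-13, TSLP and PBS distal, all set against the same PBS local array. Matrix and myofibroblast genes, ribosomal protein genes and stressed keratinocyte genes lie above 0 in both mice, and erythroid and basal keratinocyte genes below. Hair follicle, melanocyte and exocrine pancreas genes lie far apart between the mice. Erythroid and basal keratinocyte genes lie below 0 under IL-13 and TSLP too.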

How the data were processed

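Total RNA from skin was hybridised to 6 Affymetrix arrays of 1 colour each, of which TGF-beta mouse 1, TGF-beta mouse 2 and PBS local were compared. The authors deposited 1 linear intensity per probe set for every array, and the submitters' processing notes name MAS5, with no version given in the sources used here. Trimmed means of the deposited intensities, leaving out 2% at each end, were 500.16 to 500.2, so the arrays were already on 1 scale. No detection calls entered the work.

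Arrays were scaled to the mean of these trimmed means and taken as log2(signal + 27.4). A probe set was tested if it reached 165.1 on at least 1 compared array. Probe sets with 1 gene symbol numbered 20380, with several 691 and with none 1555, and 20351 were matched to RefSeq names (GRCm38.p6). Promoters came from RefSeq on that build, while for the array annotation no build was given in the sources used. All 6 arrays were fitted in 5 groups with limma 3.58.1 (lmFit, eBayes with a trend) under R 4.3.3, with 1 residual and 3.77 prior degrees of freedom and Benjamini-Hochberg adjustment at 0.05, and PBS local was assumed to vary like the TGF-beta mice. The step was run on simulated data whose spread was taken from the TGF-beta mice, so that run cannot check how PBS local varies.

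The 15 genes highest and the 15 lowest by the smaller mouse difference were named, from probe sets with 1 gene, and other genes came from 47 lists, with the brightest probe set standing for a gene. The eosinophil list had 0 measured genes. Members, lists and motifs were chosen with earlier results of these data known. Alternatives were the offset, the filter, quantile normalization, 1 value per gene, PBS distal as control, limma without the trend, and leaving out each mouse. Nothing says whether other groups shared animals, and p-values measure only the spread between the TGF-beta mice.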

Additional observations from a re-analysis of the deposited data

How the results depend on the processing

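No paired analysis was possible because PBS local has a single array. The rule that chose the 30 named genes fixes their sign without either mouse and under other offsets and filters, so those settings say nothing of stability. Against PBS distal Rps10 (-0.023), Hemgn (1.63) and Selp (0.28) reversed, Ccl7 was at -0.0056, and Klf1, too dim there to be tested, had 1.21. That control also gave 36 probe sets higher and 5 lower past limma's threshold, against 0 in the other settings, whose smallest adjusted p ran from 0.155 (quantile normalization) to 0.912. It counted 1491 higher and 1465 lower at a difference of 0.32, 744 and 605 at 1.5-fold, and 273 and 132 at 2-fold; this is a comparison with another body site, and the cause was not tested. Counts that moved by over 1.5 times follow, higher before lower. The number tested, 12034 in the main setting, differed between some settings, so these counts are not shares. No filter tested 22626 probe sets and gave 6881 and 8525 of any size, 1165 and 1412 at a difference of 0.32, 246 and 257 at 1.5-fold, and 26 lower at 2-fold. With 1 probe set per gene, 7741 were tested, with 2162 and 3286 (27.9% and 42.4%), 321 and 493 (4.15% and 6.37%), and 72 higher at 1.5-fold (0.93%). The shares in the main setting were 29.3% and 41.1%, 4.54% and 6.36%, and 0.914%. With the mean of a gene's probe sets, 6736 genes were tested, with 1786 and 2952, 226 and 424, 58 and 82, and 13 and 10 at 2-fold. An offset of 4 times the size gave 54 and 75 at 1.5-fold and 11 and 6 at 2-fold. Asking all 3 arrays to reach the median left 10650 probe sets and gave 62 and 92, and 12 and 8. The distance to the nearest of the 4 other arrays, chosen after the data were seen, gave 790 and 854, 26 and 17, 2 and 3, and 0 and 0. Leaving out 1 mouse drops the condition that both mice agree, so these counts could only rise and say nothing of stability. They were 5011 to 5605 and 6429 to 7023 at any size, 1122 to 1671 and 1647 to 2113 at a difference of 0.32, 274 to 580 and 373 to 677 at 1.5-fold, and 44 to 196 and 75 to 166 at 2-fold. Mouse 2 alone gave the higher figure from a difference of 0.32 upwards.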
